A study of Homo sapiens with 18 samples.

Results

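The genes described here encode the proteins of the large subunit of the mitochondrial ribosome. They were chosen by name: protein-coding genes of the RefSeq annotation of hg38 whose symbol is MRPL followed by a number, 49 of the 19974 protein-coding genes on chromosomes 1 to 22 and X. At each of them the binding of MAX was read from 3 deposited lists of chromatin immunoprecipitation (ChIP) peaks. A gene was counted as having a peak when a peak summit lay inside it or within 2500 bp of either of its outer ends.

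The cells were U2OS, a human osteosarcoma line whose own MYC gene had been knocked out and which carried a doxycycline-inducible MYC. The inducible MYC was the mutant named 3A in the labels, the mutant named 7A, or the wild-type form (WT). Cells of each form received doxycycline at 1 µg/ml over 24 h or PBS, and 10% mouse NIH3T3 cells were mixed in to provide an outside reference genome. Of the 18 libraries in the labels, 6 are inputs and 12 are immunoprecipitates, which form 6 groups by MYC form and treatment with 2 biological replicates in each. What the mutations change is not stated in the labels. MAX is given as the antibody target in 1 field of the labels and FLAG in the protocol, and MAX was followed here.

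The deposited lists held 27294 peaks for 3A, 25159 for 7A and 34622 for WT. Each MYC form has 1 list, in which neither the replicates nor the cells with and without doxycycline are separated. No spread between replicates can therefore be given, no test between the forms was made, and the values below are set side by side as a description. The strength of a peak is the authors' fold enrichment, the peak caller's linear ratio of signal over background at the summit. Because the lists differ in length and scale, each peak was placed by its percentile, the percentage of peaks in its own list with a lower fold enrichment.

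Mitochondria translate a small set of membrane proteins of the respiratory chain on ribosomes of their own. The RNA of these ribosomes is encoded in mitochondrial DNA, whereas all of their proteins are encoded in the nucleus, made in the cytosol and imported. MAX binds DNA as a dimer with MYC, preferably at the E-box CACGTG, and MYC is known to raise the transcription of many genes of ribosome production and mitochondrial function. MAX also pairs with MXD proteins, MNT and MGA, so a MAX peak alone does not show which partner was bound.

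RefSeq promoter windows (GRCh38.p14) reaching from 250 bases before to 50 bases after the annotated start of transcription could be matched to 42 of the 49 genes. The 7 windows printed here are those of the strongest WT peaks without an E-box (MRPL3, MRPL43), of the strongest with one (MRPL36), of a gene with an E-box and higher mutant than WT percentiles (MRPL22), of the genes with the widest gaps below WT (MRPL42, MRPL52) and of an E-box gene with no peak in any list (MRPL45). They run 5′ to 3′ on the strand of the gene, and capitals mark the E-box CACGTG, the core of ETS factor sites CCGGAAG and the core of YY1 sites AAGATGG, the last 2 on either strand.
MRPL3 (chr3:131502922-131503221, minus strand): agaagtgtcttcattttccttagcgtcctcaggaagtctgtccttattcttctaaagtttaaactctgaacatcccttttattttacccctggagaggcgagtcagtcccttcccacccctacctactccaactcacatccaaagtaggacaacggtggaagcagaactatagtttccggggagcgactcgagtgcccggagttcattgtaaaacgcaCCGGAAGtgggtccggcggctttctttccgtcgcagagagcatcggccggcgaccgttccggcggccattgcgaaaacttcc
MRPL43 (chr10:100987448-100987747, minus strand): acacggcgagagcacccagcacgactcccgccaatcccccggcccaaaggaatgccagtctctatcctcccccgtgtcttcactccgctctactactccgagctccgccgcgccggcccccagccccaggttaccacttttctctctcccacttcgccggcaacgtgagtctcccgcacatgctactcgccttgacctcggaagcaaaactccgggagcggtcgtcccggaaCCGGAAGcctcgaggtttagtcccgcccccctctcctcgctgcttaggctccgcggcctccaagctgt
MRPL36 (chr5:1799788-1800087, minus strand): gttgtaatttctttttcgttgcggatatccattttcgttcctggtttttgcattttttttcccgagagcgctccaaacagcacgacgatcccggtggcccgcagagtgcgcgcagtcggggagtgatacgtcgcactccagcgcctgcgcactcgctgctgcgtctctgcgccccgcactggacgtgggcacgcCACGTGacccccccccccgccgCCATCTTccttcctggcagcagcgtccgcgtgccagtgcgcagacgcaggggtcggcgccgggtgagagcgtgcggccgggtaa
MRPL22 (chr5:154940823-154941122, plus strand): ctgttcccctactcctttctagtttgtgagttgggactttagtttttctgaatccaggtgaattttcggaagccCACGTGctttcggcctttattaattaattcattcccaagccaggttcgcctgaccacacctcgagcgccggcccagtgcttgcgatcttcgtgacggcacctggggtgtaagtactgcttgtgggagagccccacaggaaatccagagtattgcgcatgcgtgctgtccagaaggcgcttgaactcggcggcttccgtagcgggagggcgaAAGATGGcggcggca
MRPL42 (chr12:93467264-93467563, plus strand): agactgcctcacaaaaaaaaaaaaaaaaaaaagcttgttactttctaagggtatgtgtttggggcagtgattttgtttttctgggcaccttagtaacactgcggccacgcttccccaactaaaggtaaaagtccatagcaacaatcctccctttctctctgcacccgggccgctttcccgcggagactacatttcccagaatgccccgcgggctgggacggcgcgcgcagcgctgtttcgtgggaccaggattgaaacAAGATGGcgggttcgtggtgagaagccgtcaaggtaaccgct
MRPL52 (chr14:22829637-22829936, plus strand): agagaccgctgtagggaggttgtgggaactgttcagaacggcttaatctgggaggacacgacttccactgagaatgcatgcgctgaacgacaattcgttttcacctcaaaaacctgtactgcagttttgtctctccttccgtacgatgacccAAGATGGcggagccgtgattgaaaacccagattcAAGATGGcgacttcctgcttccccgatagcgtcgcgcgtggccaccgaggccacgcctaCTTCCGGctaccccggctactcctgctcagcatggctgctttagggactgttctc
MRPL45 (chr17:38296918-38297217, plus strand): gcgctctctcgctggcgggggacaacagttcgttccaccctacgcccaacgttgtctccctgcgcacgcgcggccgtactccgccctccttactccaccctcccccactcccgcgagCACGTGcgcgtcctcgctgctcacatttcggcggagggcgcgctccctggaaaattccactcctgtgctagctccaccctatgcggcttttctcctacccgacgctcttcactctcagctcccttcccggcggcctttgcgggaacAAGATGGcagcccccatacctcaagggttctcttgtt

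Nearly all of these genes had a MAX peak whichever form of MYC the cells carried. A peak stood at 46 of 49 in the 3A list (93.9%, 95% Clopper-Pearson interval 83.1 to 98.7%), at 46 of 49 in the 7A list (the same percentage and interval) and at 47 of 49 in the WT list (95.9%, 86.0 to 99.5%). The intervals cover counting error only. Of all protein-coding genes, 67.7% had a peak by the same rule in the 3A list, 66.7% in the 7A list and 70.8% in the WT list. A peak in all 3 lists stood at 46 members, against 65.7% of all protein-coding genes. The members' peaks numbered 57 in the 3A list, 56 in the 7A list and 59 in the WT list. Several peaks at 1 gene were found at 11, 10 and 11 members in the 3A, 7A and WT lists (23.9%, 21.7% and 23.4%), against 35.3%, 32.8% and 40.9% of all genes with a peak.

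The members without a peak were 3. MRPL35, a small protein of the subunit, had no peak in the 3A or 7A list and 1 in the WT list, with a fold enrichment of 9.50 at the 43.2nd percentile. The nearest summit lay 3723 bp outside the gene in the 3A list and 3440 bp outside it in the 7A list. MRPL35 was thus the 1 member with a WT peak and no 3A peak, a state shared by 5.1% of all genes with a WT peak, and the 1 member with a WT peak and no 7A peak, shared by 6.35% of them. MRPL23, whose protein lies at the exit of the tunnel through which the new peptide leaves, had no peak in any list. Its nearest summit was 3110 bp outside the gene in the 3A list, 78306 bp in the 7A list and 3168 bp in the WT list, the 3A and WT distances being a little beyond the 2500 bp allowed. On the inner side of that limit, the strongest mutant peaks assigned to MRPL52 lay near the far end of the gene, 7443 bp downstream of its start in the 3A list and 7490 bp downstream in the 7A list.

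MRPL45, whose protein ties the ribosome to the inner membrane beside the tunnel exit, also had no peak in any list. Its nearest summit was 530359 bp away in the 3A list, 530372 bp in the 7A list and 530367 bp in the WT list. The gene sits on chromosome 17 in a stretch of 3089 kb without a listed summit, which held 55 protein-coding genes and was bounded by the same summits, to within 100 bp, in all 3 lists. The lists thus hold no summit for any gene of that stretch, and the missing peak at MRPL45 is not read here as unbound chromatin. MRM1, a methyltransferase of the large ribosomal RNA, lies in the same stretch. MRPS18B, of the small subunit, lies in a stretch of 5082 kb on chromosome 6 with 172 protein-coding genes and no summit in any list.

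**Figure D1:**
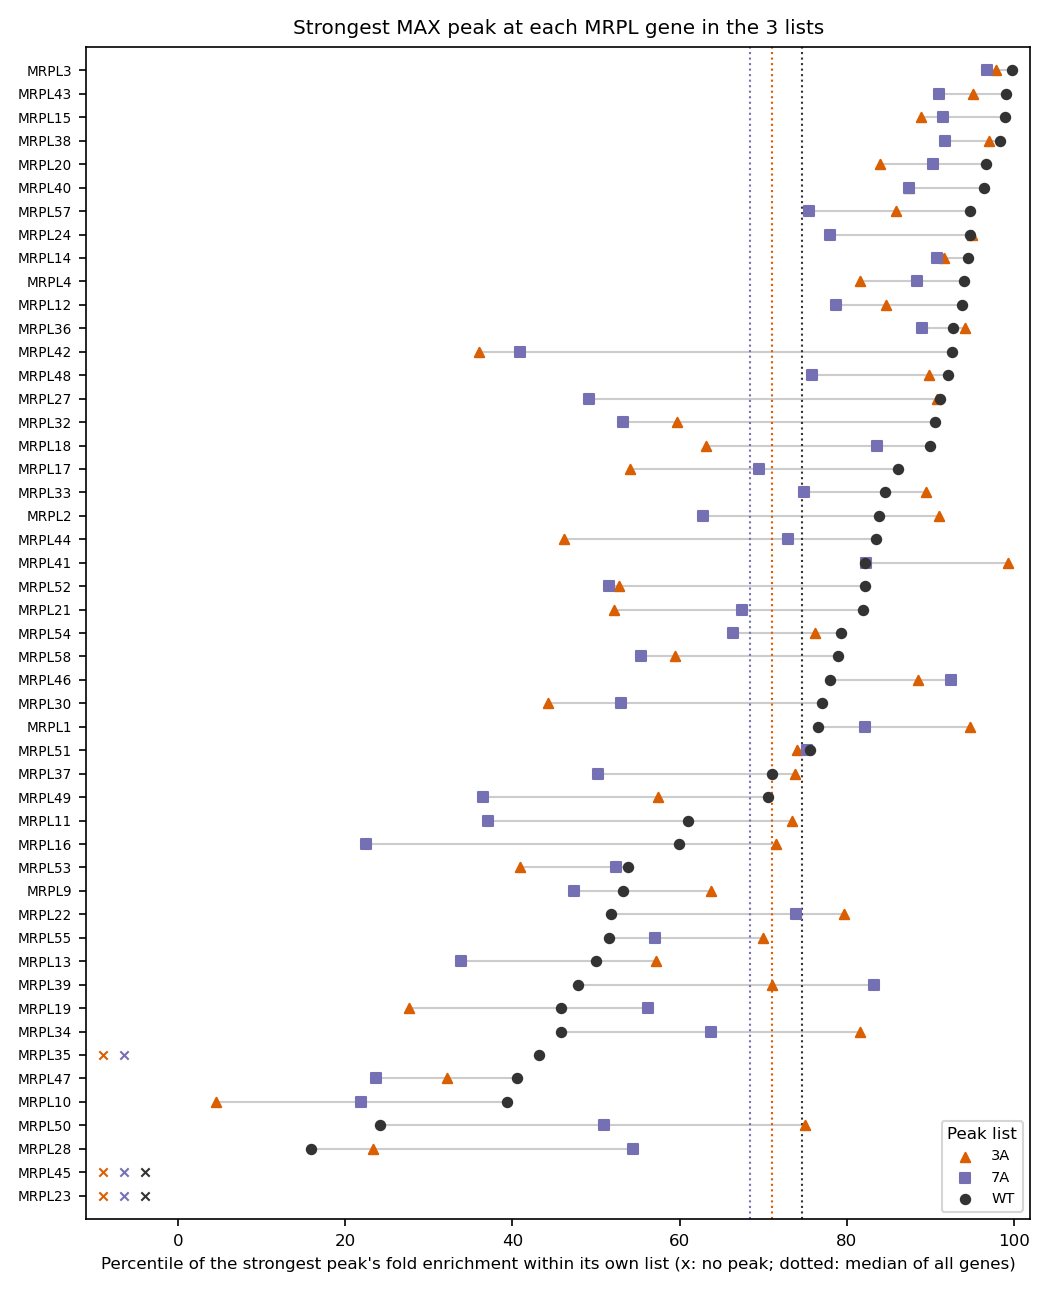
Percentile of the strongest MAX peak at each of the 49 genes within its own list (x axis, percent), 1 row per gene in the order of the WT percentile. Triangles are the 3A list, squares the 7A list and circles the WT list, crosses at the left mark genes without a peak, and dotted lines mark the medians over all genes with a peak (71.0, 68.5 and 74.7).

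The strongest peaks of the members lay between the 4.5th and 99.3rd percentile in the 3A list, the 21.9th and 96.8th in the 7A list and the 15.8th and 99.8th in the WT list. Their fold enrichment ran between 4.92 and 67.5 with a median of 16.6 in the 3A list, between 7.29 and 42.5 with a median of 14.99 in the 7A list, and between 5.89 and 123.4 with a median of 21.9 in the WT list. The median percentile was 74.5 in the 3A list, 68.5 in the 7A list and 82.0 in the WT list. The 95% intervals of these medians over members were 63.1 to 85.9, 54.4 to 77.99 and 71.1 to 89.99. Over all genes with a peak the medians were 71.0, 68.5 and 74.7. The member median lay near that of all genes in the mutant lists and higher in the WT list. In each list, however, the interval of the member median covers the median of all genes. With all lists cut to equal length, the member medians were 72.36 in 3A, 68.47 in 7A and 75.38 in WT. Ranked among the strongest peaks of genes only, the median member stood at the 55.1st percentile in the 3A list, the 49.9th in the 7A list and the 61.7th in the WT list. At or above the 90th percentile of their list were 10 members in 3A (21.7%), 7 in 7A (15.2%) and 16 in WT (34.0%), against 19.96%, 18.1% and 23.1% of all genes with a peak. The lowest −log10 q of a member's strongest peak was 30.7, 51.3 and 39.5 in the 3A, 7A and WT lists.

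Among the members listed for the core of the subunit and the neighbourhood of the site where peptide bonds are formed, MRPL3 had the strongest peak of the family in the WT list. MRPL3 had a fold enrichment of 47.0 in 3A, 42.5 in 7A and 123.4 in WT, at percentiles of 97.9, 96.8 and 99.8. Its summit lay 44, 50 and 45 bp downstream of the start in these lists, so the peak held its place as well as its rank. MRPL14 stood at the 91.7th, 90.8th and 94.5th percentile in 3A, 7A and WT by the gene-wide rule, but its strongest 3A peak lay 10180 bp downstream of the start. The peak at the MRPL14 start stood at the 86.98th percentile in 3A. MRPL4 stood at the 81.6th, 88.5th and 94.0th. MRPL16, which shapes the binding site of the transfer RNAs, differed more between the mutants, at the 71.6th percentile in 3A, the 22.5th in 7A and the 59.9th in WT. The 6 core members had median percentiles of 86.3 in 3A, 75.6 in 7A and 89.0 in WT by the gene-wide rule. The 3A median thus holds the distant MRPL14 peak, and MRPL2 at the 91.1st percentile from a peak shared with KLC4. At the site of its strongest WT peak MRPL2 stood at the 58.3rd percentile in 3A, the 62.8th in 7A and the 83.9th in WT. The 3A and WT medians of this group therefore compare partly different peaks.

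The central protuberance is the crest of the large subunit that faces the small subunit. Its 6 members had the highest medians of the 4 groups named by role, at 89.2 in 3A, 85.5 in 7A and 91.7 in WT. MRPL40 had a fold enrichment of 23.6 in 3A, 23.9 in 7A and 47.0 in WT, at percentiles of 87.5, 87.4 and 96.4. MRPL46 had higher values in the mutant lists, with fold enrichments of 24.6 in 3A, 29.9 in 7A and 19.4 in WT, at the 88.6th percentile in 3A, the 92.5th in 7A and the 78.1st in WT. MRPL27 kept its place in 3A, at the 90.9th percentile, and stood at the 49.1st in 7A against the 91.2nd in WT. MRPL38 stood at the 97.0th, 91.7th and 98.4th percentile by the gene-wide rule. The strongest MRPL38 peak in the 7A and WT lists, however, lay 8135 and 8142 bp downstream of its start, next to TRIM65. The peak at the start of MRPL38 itself reached the 97.0th percentile in 3A, the 74.6th in 7A and the 86.2nd in WT.

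The genes of proteins along the peptide exit tunnel or at its mouth gave peaks at 5 of 7 members in each list. Of all protein-coding genes, 67.7% had a peak in 3A, 66.7% in 7A and 70.8% in WT. The exceptions were MRPL23 and MRPL45, the latter in the stretch without a listed summit. The 5 members with a peak had median percentiles of 71.1 in 3A, 74.0 in 7A and 83.5 in WT. MRPL24 was the strongest of them in WT, with fold enrichments of 34.6 in 3A, 18.2 in 7A and 40.4 in WT and percentiles of 95.01, 77.99 and 94.8. MRPL22, which reaches into the tunnel wall, was weaker in WT than in the mutant lists, with fold enrichments of 18.6, 16.6 and 11.0 and percentiles of 79.7, 74.0 and 51.8 in 3A, 7A and WT. MRPL39 was also weaker in WT than in the mutant lists, at the 71.1st percentile in 3A, the 83.3rd in 7A and the 47.8th in WT. MRPL44, which has the fold of an RNase III enzyme, was stronger in WT than in either mutant list, at the 46.2nd percentile in 3A, the 73.0th in 7A and the 83.5th in WT.

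The stalk recruits the translation factors to the ribosome, and its 4 members had median percentiles of 58.5 in 3A, 59.4 in 7A and 66.6 in WT, the lowest of the 4 groups named by role. MRPL10, the base of the stalk, had the weakest member peak of the 3A list, with a fold enrichment of 4.92 at the 4.5th percentile. It stood at the 21.9th percentile in 7A and the 39.4th in WT, with fold enrichments of 7.29 and 8.94. MRPL12, the mobile arm of the stalk, was strong in all lists, at the 84.7th, 78.8th and 93.8th percentile in 3A, 7A and WT. MRPL54 entered the 3A median at the 76.2nd percentile, from a peak 926 bp upstream of its start. The peak at the MRPL54 start stood at the 44.8th percentile in 3A, the 66.4th in 7A and the 79.3rd in WT. The 3A median of the stalk therefore rests partly on another peak than the 7A and WT medians.

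The remaining 26 members were put in none of these groups, and many of their proteins are found only in mitochondrial ribosomes. MRPL43 had fold enrichments of 35.0 in 3A, 27.7 in 7A and 77.3 in WT, at percentiles of 95.1, 91.0 and 99.1. MRPL15 had fold enrichments of 24.9, 28.5 and 73.7, at percentiles of 88.9, 91.6 and 98.9. MRPL20 had 21.1, 26.9 and 48.5 in 3A, 7A and WT, at percentiles of 84.0, 90.4 and 96.7. MRPL57 had 22.3, 17.2 and 40.5, at percentiles of 85.9, 75.4 and 94.8. These 4 genes had higher percentiles in WT than in either mutant list. MRPL41 had the highest percentile of any member in the 3A list, at 99.3, against 82.3 in 7A and 82.2 in WT. That MRPL41 peak was assigned to PNPLA7 as well and lay 1439, 1435 and 1440 bp upstream of the start of MRPL41. The peak at the MRPL41 start itself stood only at the 49.8th percentile in 3A, the 42.6th in 7A and the 57.8th in WT. The weakest members in WT were MRPL28, MRPL50, MRPL10 and MRPL47. MRPL28 had fold enrichments of 7.45 in 3A, 11.8 in 7A and 5.89 in WT, at percentiles of 23.3, 54.4 and 15.8. MRPL50 had 16.8, 11.2 and 6.91, at percentiles of 75.02, 50.99 and 24.2, and so stood highest in 3A and lowest in WT. MRPL47 had 8.55, 7.49 and 9.10, at percentiles of 32.2, 23.6 and 40.6. The 26 members had median percentiles of 73.4 in 3A, 55.4 in 7A and 76.8 in WT.

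In the 3A list the percentile of the strongest peak was lower than in the WT list at 28 of the 46 members with a peak in both (60.9%), beside 58.7% of all genes with a peak in both. The median difference was −2.60 percentile points for members and −2.65 for all genes, so the count and the median of the members lay close to those of all genes. In the 7A list the percentile was lower than in WT at 36 of 46 members (78.3%), beside 64.2% of all genes. The median difference was −9.32 for members and −4.71 for all genes. With the WT and 3A lists shortened to the strongest 25159 peaks by q value, the length of the 7A list, 24 of 45 members were lower in 3A than in WT (all genes 47.3%) and 30 of 45 in 7A than in WT (all genes 47.8%). The median differences were then −1.01 and −5.00 for members and 0.77 and 0.68 for all genes. Both comparisons share the WT list.

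The members differed widely around these medians. MRPL42 had the widest gap below WT in both mutants. Its fold enrichment was 9.06 in 3A, 9.68 in 7A and 34.9 in WT, at percentiles of 36.0, 40.9 and 92.7, differences of −56.6 and −51.7 points. The MRPL42 peak held its place, with summits 213, 202 and 204 bp downstream of the start in 3A, 7A and WT, and was 443, 474 and 716 bp wide. In 3A the next widest gaps were at MRPL44 (−37.3), MRPL10 (−34.9) and MRPL30 (−32.9). In 7A they were at MRPL27 (−42.1), MRPL32 (−37.4) and MRPL16 (−37.4). MRPL30 stood at the 44.2nd percentile in 3A, the 53.0th in 7A and the 77.1st in WT, and MRPL32 at the 59.7th, 53.2nd and 90.6th, so both were higher in WT than in either mutant. Percentiles above WT were widest in 3A at MRPL50 (50.8), MRPL34 (35.8), MRPL22 (27.9) and MRPL39 (23.3). In 7A they were widest at MRPL28 (38.6), MRPL39 (35.5), MRPL50 (26.8) and MRPL22 (22.2). MRPL34 stood at the 81.6th percentile in 3A, the 63.8th in 7A and the 45.8th in WT, but the WT value belongs to another peak than the mutant values. At the site of its strongest WT peak MRPL34 stood at the 65.1st percentile in 3A, the 52.5th in 7A and the 45.8th in WT. The 3 genes MRPL50, MRPL22 and MRPL39 were among these 4 in both mutants. The steadiest members were MRPL51, whose percentiles of 74.0, 75.3 and 75.6 spanned 1.61 points, and MRPL3, which spanned 3.03 points.

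Peaks with a summit farther than 500 bp from the member's own start were next set aside, though not those that also lie at a neighbour's start. The strongest peak with its summit within 500 bp of the own start was taken, or of the nearest start where RefSeq gives several. Such a peak stood at 40 of 42 members in the 3A list (95.2%), 40 of 42 in the 7A list (95.2%) and 39 of 42 in the WT list (92.9%), against 54.8%, 53.9% and 55.1% of all genes with a promoter window. The median percentiles were 72.5 in 3A, 65.1 in 7A and 78.9 in WT for members, and 67.7, 64.9 and 71.1 for all genes with such a peak. MRPL52 then showed the widest gap, with a fold enrichment of 6.78 in 3A, 6.26 in 7A and 22.02 in WT, at percentiles of 17.8, 13.5 and 82.2. Its summits lay 60, 64 and 16 bp upstream of the start, whereas its gene-wide values in the mutants come from peaks with fold enrichments of 11.5 in 3A and 11.3 in 7A near MMP14. Of the 39 members with such a peak in all 3 lists, 23 were lower in 3A than in WT (all genes 55.9%) and 30 were lower in 7A than in WT (all genes 61.6%). MRPL51 had no summit within 500 bp of its start in any list. The summit of its peak lay 732, 800 and 814 bp upstream in 3A, 7A and WT, toward NCAPD2, but the peak itself covered the start in each list. MRPL18 had a summit within that distance in 3A and 7A, at the 63.1st and 83.6th percentile, while its WT summit lay 714 bp upstream, toward TCP1. The MRPL18 peak covered the outer start in all 3 lists, so only the summit differed. Its 3A summit lay 506 bp from that start and was counted through another listed start, 149 bp away.

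**Figure D2:**
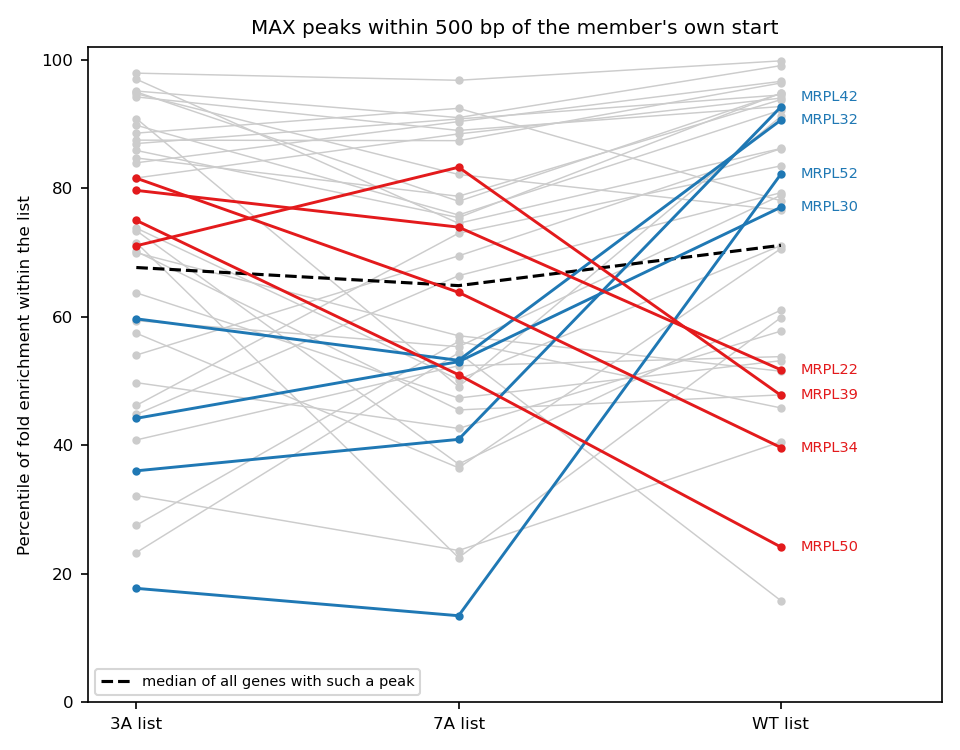
Percentile of the strongest peak within 500 bp of the start for the 39 members with such a peak in all 3 lists (y axis, percent of peaks of the list with a lower fold enrichment), with the 3A, 7A and WT lists from left to right. Blue lines are the 4 members with the lowest mean of both mutant minus WT differences (MRPL52, MRPL42, MRPL32 and MRPL30), red lines the 4 with the highest, grey lines the others, and the dashed line is the median of all genes with such a peak.

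Most summits sat on the start of transcription. The strongest peak of a member lay within 500 bp of the member's own start at 35 of 41 members in 3A (85.4%), 36 of 41 in 7A (87.8%) and 35 of 41 in WT (85.4%). Over all genes with a peak and a promoter window the shares were 66.6%, 67.7% and 62.5%. The median distance between summit and start was 44 bp in 3A, 50 bp in 7A and 53 bp in WT at members, against 216, 211 and 267 bp over all genes. A summit within 100 bp of the start was found at 27 of 41 members in 3A (65.9%), 28 of 41 in 7A (68.3%) and 22 of 41 in WT (53.7%), against 32.3%, 32.4% and 28.7% of all genes.

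**Figure D3:**
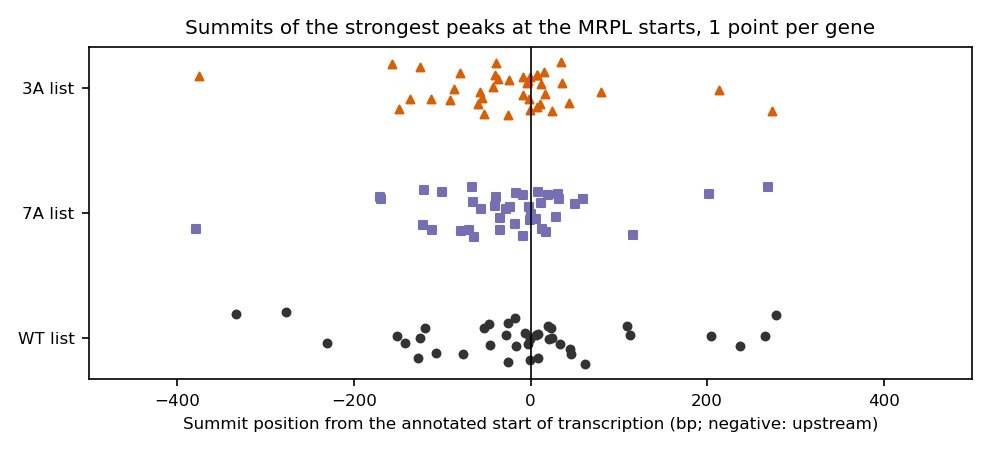
Position of the summit of the strongest peak within 500 bp of a member's start (x axis, bp from the start, negative upstream), 1 point per gene, with the 3A list on top, 7A below it and WT at the bottom; the vertical scatter within a row carries no value. The summits crowd around the start in each list, and MRPL42 and MRPL48 lie 202 to 278 bp downstream in all 3.

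The mutant peaks mostly covered the same sites. A mutant peak overlapped the strongest WT peak at 46 of 47 members in 3A and at 46 of 47 in 7A, MRPL35 being the exception. The overlapping peak was not the strongest of the gene at MRPL2, MRPL14, MRPL34, MRPL38, MRPL52 and MRPL54 in 3A and at MRPL34 and MRPL52 in 7A, so the gene-wide values of these members compare different peaks. The median shift between the mutant and the WT summit was 16.5 bp in 3A and 12 bp in 7A, and the shift was at most 50 bp at 36 members in each. These overlaps and shifts are not given over all genes, so they are not read as particular to the members. Shifts over 100 bp in both mutants were seen at MRPL1, MRPL10, MRPL11, MRPL18, MRPL30, MRPL49 and MRPL50. At MRPL50 the summit lay 157 bp upstream of the start in 3A and 170 bp upstream in 7A, and 237 bp downstream in WT. At MRPL30 it lay 91 bp upstream in 3A and 56 bp upstream in 7A, and 266 bp downstream in WT. At MRPL49 the 3A summit lay 332 bp and the 7A summit 330 bp downstream of the WT summit. The mutant summits at these 3 genes were thus closer to each other than to the WT summit.

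Many of the members share their MAX peak with a neighbour. The strongest peak was assigned to another protein-coding gene as well at 27 members in 3A (58.7%), 29 in 7A (63.0%) and 28 in WT (59.6%), against 33.1%, 33.2% and 32% of all genes with a peak in these lists. A start of another gene on the opposite strand lay within 1000 bp at 15 of the 42 members with a window (35.7%), against 13.6% of all genes with one. Neighbours without a window of their own could not be counted, at members or over all genes. The same peak had its summit within 500 bp of both starts at 10 of these 15 pairs in 3A, 11 in 7A and 10 in WT. MRPL46 is paired in this way with MRPS11, of the small subunit, at a distance of 320 bp between the starts, so 1 peak is counted for a gene of each subunit. MRPL49 lies 49 bp from FAU, which encodes a protein of the cytosolic small subunit, and MRPL32 lies 202 bp from PSMA2, a proteasome subunit. The strongest WT peak of MRPL43 was shared with TWNK, the helicase of mitochondrial DNA, and with SEMA4G. Where a peak covers 2 starts, the lists do not show at which gene MAX acts.

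The E-box was not common at these starts. CACGTG was found in the windows of 5 of 42 members (11.9%), namely MRPL22, MRPL36, MRPL37, MRPL45 and MRPL49, against 8.82% of all 15812 windows searched. The variant CACGCG was found at 6 members (14.3%), against 14.8% of all windows. CATGTG was found at 4 members (9.52%), against 8.57%, and the variant CATGCG at 6 members (14.3%), against 8.52%. CATGCG is part of GCATGCG, counted below for NRF1. The 4 members with GCATGCG (MRPL17, MRPL22, MRPL32 and MRPL52) are among these 6. Any of the 4 E-box forms, on either strand and with overlaps between forms allowed, was found at 15 members (35.7%), against 34.0% of all windows. Among the windows of genes with a WT peak, 9.94% held CACGTG, 17.8% CACGCG, 6.85% CATGTG, 9.88% CATGCG and 36.7% any form. In MRPL36 the E-box lies at positions −56 to −51, counted from the start as 0, and the summit lay 27.5 bp from its centre in 3A, 16.5 bp in 7A and 61.5 bp in WT. In MRPL22 it lies at −176 to −171, with the nearest summit 116.5 bp away in 3A, 108.5 bp in 7A and 127.5 bp in WT. In MRPL49 it lies at −245 to −240, with the nearest summit 343.5 bp away in 3A, 341.5 bp in 7A and 11.5 bp in WT. In MRPL37 it lies at −170 to −165, and the distances were 201.5, 199.5 and 188.5 bp. In MRPL45 it lies at −133 to −128, in a gene without a summit in any list. Over all genes, those with CACGTG had a peak more often than those without it, 80.1% against 68.7% in 3A, 79.1% against 67.7% in 7A and 82.0% against 71.9% in WT. Their median percentiles were 84.9 against 69.97, 84.4 against 66.8 and 87.9 against 73.6. The 4 members with an E-box and a peak had median percentiles of 76.7 in 3A, 62.1 in 7A and 70.9 in WT. For the 37 members with a peak and without an E-box they were 75.02, 73.0 and 82.2. These groups rest on the most upstream window of each gene, whereas the percentiles are gene-wide. With any window of a gene searched, 6 members had an E-box. The printed windows of MRPL3 and MRPL43, the strongest WT peaks with a window and without CACGTG, each hold 1 ETS core.

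The cores of ETS and YY1 sites were more common. CCGGAAG, on either strand, was found at 17 of 42 members (40.5%), against 14.1% of all windows and 17.4% of the windows of genes with a WT peak. AAGATGG, on either strand, was found at 14 of 42 (33.3%), against 6.36% of all windows and 7.05% of those with a WT peak. At least 1 of the pair was present at 26 members (61.9%), against 19.2% and 22.8%. The GC box GGGCGG was found at 23 members (54.8%), against 58.3% of all windows and 68.0% of those with a WT peak. GCATGCG, as a part of NRF1 sites, was found at 4 (9.52%), against 5.15% and 6.15%. The 17 members with the ETS core had median percentiles of 76.2 in 3A, 66.4 in 7A and 82.2 in WT, against 74.4, 73.5 and 80.2 for the 24 members with a peak and without it. The 13 members with the YY1 core and a peak had 74.0, 53.2 and 78.1, against 78.9, 73.9 and 82.9 for the 28 without it. MRPL52 holds 2 YY1 cores and 1 ETS core in the printed window. Its mutant summits lay 1 bp (3A) and 3 bp (7A) from the centre of the nearer YY1 core. The WT summit of MRPL52 lay 45 bp from that core and 14 bp from the ETS core. Distances to the YY1 core varied between members, with 19, 51 and 22 bp at MRPL46 and 202, 191 and 193 bp at MRPL42 in 3A, 7A and WT. A match shows only that these letters stand in the window.

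**Figure D4:**
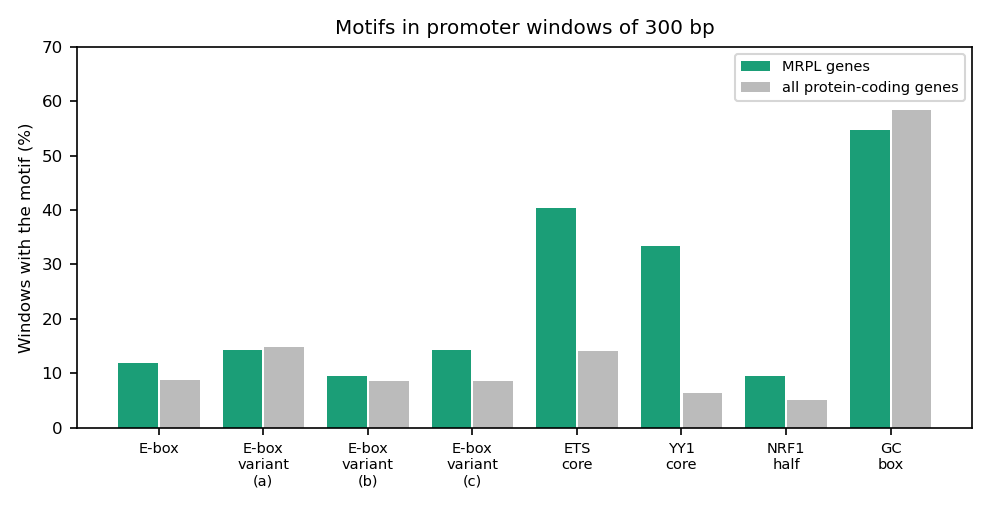
Share of promoter windows of 300 bp that hold each motif (y axis, percent, from 0), with the 42 MRPL windows as green bars on the left of each pair and all 15812 windows as grey bars on the right; the E-box variants a, b and c stand in the order of the text. The ETS and YY1 bars of the MRPL genes reach 40.5% and 33.3%, against 14.1% and 6.36% of all windows.

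Genes that work with the large subunit were set beside its proteins. The 3 large-subunit proteins with other names, GADD45GIP1, MRPS30 and MRPS18A, each had a peak in every list, with median percentiles of 38.4 in 3A, 39.0 in 7A and 70.3 in WT. Of 21 genes of large-subunit assembly and modification of its RNA, 20 had a peak in each list, with medians of 79.6, 69.99 and 83.4, and MRM1 had none. All 17 translation factor genes matched had a peak in each list, with medians of 72.3, 65.2 and 76.7. Of the 28 genes with an MRPS symbol, most of them of the small subunit but with MRPS30 and MRPS18A among them, 26 had a peak in each list, with medians of 75.5, 60.3 and 82.5, and MRPS18B and MRPS31 had none. The genes of the large subunit of the cytosolic ribosome had a peak at 49 of 49 in 3A, 48 of 49 in 7A and 49 of 49 in WT, with medians of 94.6, 83.4 and 94.3, above those of the MRPL genes in each list. The MRPS medians lay within 10 points of the MRPL medians in each list, and no test between these groups was made.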

How the data were processed

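MAX ChIP-Rx of U2OS cells was analysed from 3 peak lists in the narrowPeak layout, 1 per MYC form. The submitters' processing notes name MACS2, Picard, SAMtools, Bowtie2 and cutadapt, and as builds mm10, hg38 and hg19, with no version or role. Not given in the sources used here are the pooling of replicates, the control of the peak calls and the use of the mouse reads for scaling. The deposited fold enrichment is a linear ratio, and the −log10 q beside it is the authors' too. The deposited summit offset was added to the peak start, and positions are printed counting from 1 in hg38. The depth of the libraries is unknown from the lists. Columns of other samples numbered 0.

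Genes were taken from RefSeq (GRCh38.p14) by outer ends. Each gene was given its strongest peak, and its percentile is the share of peaks of that list with a lower fold enrichment plus 50% of the ties. For the 6 members with several starts, motifs were searched in the most upstream window and distances were taken to the nearest start. The windows of MRPL2, MRPL10, MRPL13, MRPL15, MRPL21, MRPL23 and MRPL35 were not used here. Intervals are Clopper-Pearson at 95%, and those of medians are exact order-statistic intervals over members. All members were accounted for. Named in full are members without a peak, the 8 highest and 4 lowest WT percentiles, the 4 highest in each mutant and the 4 widest differences on either side of WT in each mutant, with further members as examples of their group. Members, gene lists and motifs were chosen with earlier results of these data known. Alternatives were other windows, a −log10 q of at least 10, equal or shorter lists, ranking by q or among genes, and other definitions of a shared site. The steps were tested on simulated data. The tools were matplotlib 3.10.9, SciPy 1.17.1, NumPy 2.4.6, pandas 2.3.3 and Python 3.11.15.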

Additional observations from a re-analysis of the deposited data

How the results depend on the processing

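Of 82 recomputed values, 60 stayed within the limits set for an unchanged value, 22 moved and 0 reversed. Within the strongest 5000 peaks of each list, 18 members had a peak in 3A, 15 in 7A, 20 in WT and 11 in all 3. In that cut 7 had a WT peak and no 3A peak, and 9 had a WT peak and no 7A peak. The share of all genes in that cut is not given here, so these counts are not read as particular to the members. The median percentiles were 53.53, 47.47 and 60.03, by construction over stronger peaks only. Ranked over the strongest peak of each gene, the medians were 55.09, 49.95 and 61.67. Members with a WT peak and no mutant peak numbered 0 for 3A and 0 for 7A within 500 bp of the start, for which MRPL35 has no window, and 0 and 0 for a mutant peak at the same start, chosen after seeing the data. With summits required within 100 bp they numbered 9 for 3A and 8 for 7A, and with an overlap of 50% of both peaks 3 and 3. For these definitions too the share of all genes is not given, so the counts do not set the members apart. Members with an E-box numbered 9 with CACGCG allowed and 15 with any of the 4 forms. The search around the WT summits was not run, since it needs a genome sequence. No paired analysis was possible because each list holds no separate replicates, and for the same reason no replicate could be left out. The number of lists, 1 per MYC form, limits every comparison between the forms.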
